A study of Rattus norvegicus with 48 samples.

Results

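The comparison described here is the vinclozolin lineage against the control lineage among restrained rats, in primary and secondary motor cortex. It was chosen by area and group: 6 of the 48 arrays of the series, 3 of the Stressed Vinclozolin group (St-Vin) and 3 of the Stressed Control group (St-Con). The rats were Sprague-Dawley males of the F3 generation. St-Vin descends from pregnant F0 females injected intraperitoneally with vinclozolin at 100 mg/kg/day on embryonic days 8 to 14, and St-Con from F0 females given the vehicle, DMSO. Both groups went through restraint in adolescence, 6 hours daily for 21 days from postnatal day 23 to 43, and were killed as adults at postnatal day 120. Each rat lived in a dyad of 1 control-lineage and 1 vinclozolin-lineage male. Punches of 2 mm were homogenised and 4 rats were pooled per array, so the 6 arrays hold RNA of 24 rats and no value belongs to a single animal. The pools of dyad groups 4, 5 and 6 are replicates 1, 2 and 3 of both lineages, and all 6 arrays were scanned on 1 day. Replicates are separate pools of animals, and the tests rest on how far those pools differ.

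Vinclozolin is a dicarboximide fungicide whose metabolites block the androgen receptor. In the female dosed during pregnancy, the embryo and its germ cells are exposed as well, and F3 is the first generation with no direct exposure. Restraint is a psychological stressor that raises circulating glucocorticoids, which act on cortical neurons and glia through the glucocorticoid and mineralocorticoid receptors. Motor cortex is a layered cortex whose deep layers send output to the spinal cord, striatum and thalamus, and whose neurons switch on immediate early genes when they fire. A 2 mm punch takes up neurons of all layers, glia, vessels and, at the surface, the leptomeninges, the thin membranes that cover the cortex. In such bulk tissue fewer cells of a type and less RNA per cell cannot be told apart.

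Values are RMA log2 signals of Affymetrix whole-transcript arrays, so a difference of 1 is a doubling of signal. The 6 arrays had medians of 6.76 to 6.805 and correlated with each other at 0.993 to 0.997 across probe sets, and the number of arrays limits the precision. After each array was centred on its median, deep-layer markers Fezf2 (1.78), Etv1 (3.27), Pcp4 (3.85) and Parm1 (2.04) were higher in motor cortex than in basolateral amygdala, CA1 and CA3. In all, 5 of 11 deep-layer markers were highest in motor cortex, and 0 of 11 hippocampal markers and 3 of 15 striatal ones were. The median level of the deep-layer list was 0.73 in motor cortex and 0.86 in CA1, and its members Rprm and Ccn2 were higher in CA1. Drd2, a dopamine receptor of striatal neurons, stood at -1.30 in motor cortex and 0.55 in amygdala, and Prox1, a marker of dentate granule cells, at -1.09 in motor cortex and 1.61 in CA3. The upper-layer list went against the label, with 0 of 7 measured members highest and 5 lowest in motor cortex.

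2 St-Vin arrays stood apart from the other stressed arrays in genes of single cell types. St-Vin 1 was rich in myelin RNA: the median deviation of the 25 measured oligodendrocyte and myelin genes from their mean over the 6 arrays was 0.38 there, 0.047 in St-Vin 2, -0.24 in St-Vin 3 and between -0.10 and -0.058 in the St-Con arrays. It also had the highest median deviation for deep-layer genes (0.23) and the lowest for upper-layer genes (-0.24). Ttr, a choroid plexus product that carries thyroid hormone, read 5.98, 5.21 and 4.58 in St-Con 1 to 3 and 10.50, 4.22 and 5.70 in St-Vin 1 to 3. St-Vin 3 was rich in leptomeningeal RNA, with a median deviation of 0.39 over 17 genes against -0.20 to -0.027 in the other 5 arrays, and in endothelial RNA, with 0.17 over 18 genes. Ogn, a small proteoglycan of fibroblasts, read 6.77, 6.96 and 6.30 in St-Con and 6.70, 6.21 and 8.67 in St-Vin. Only the third St-Vin array was high. These 2 arrays move several lists described below, and where leaving 1 of them out turns the sign of a list's median that value is given beside it.

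**Figure D1:**
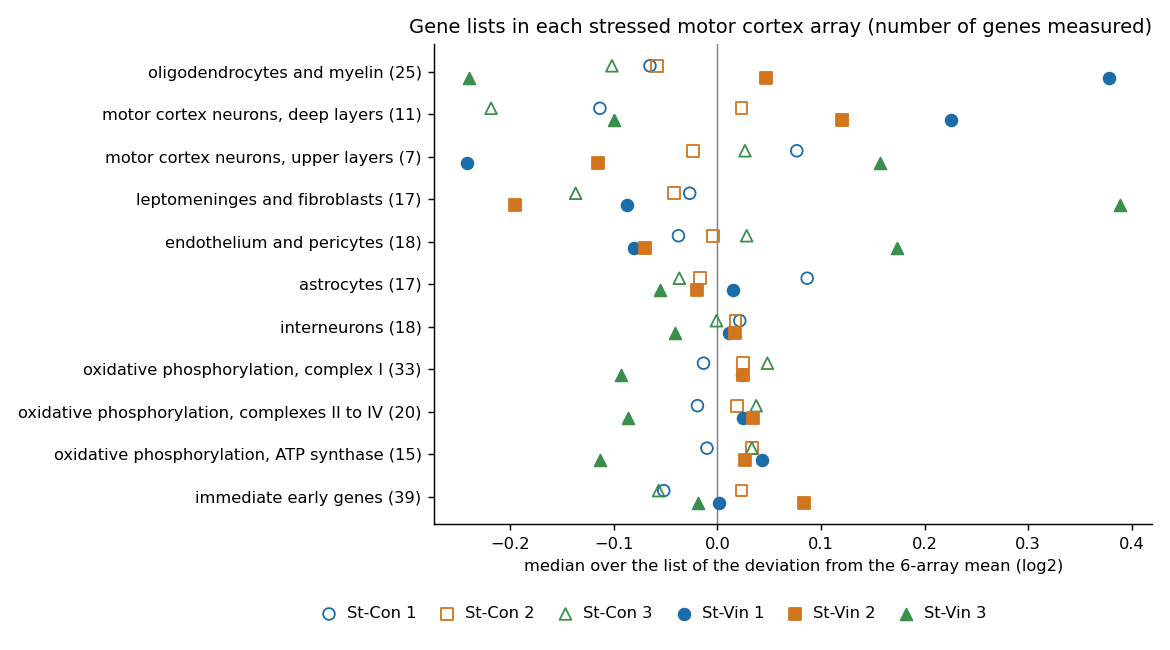
Median deviation of each gene list from its mean over the 6 stressed motor cortex arrays, in log2 units on the x axis, with 1 marker per array (open, St-Con; filled, St-Vin; shape and colour, dyad group) and the number of genes measured beside each list name. St-Vin 1 lies far right for myelin genes (0.38), and St-Vin 3 far right for leptomeningeal genes (0.39) and left for the oxidative phosphorylation lists.

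limma called 0 of 27342 probe sets different between St-Vin and St-Con at a Benjamini-Hochberg adjusted p of 0.05 (0.0% called), and the lowest adjusted p was 0.731. With the dyad group as a replicate block limma called 0 as well (0.0%), with a lowest adjusted p of 0.181. At an unadjusted p of 0.05, limma counted 740 probe sets with more signal in St-Vin (2.71%) and 912 with less (3.34%), 1652 in all (6.04%), where chance alone gives 1367. With the block the count was 1721 (6.29%). It was 914 without St-Con 1, and 1040 when dim probe sets were left out. The unadjusted p-values were spread nearly evenly, with 1652 probe sets in the lowest of 20 equal bins and 1137 to 1527 in the others. Differences were small beside the error: the median size was 0.053, 35 probe sets (0.128%) reached 0.5, and the median standard error (SE) was 0.069. The median SD between arrays was 0.067 in St-Con and 0.082 in St-Vin (n = 3 each).

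**Figure D2:**
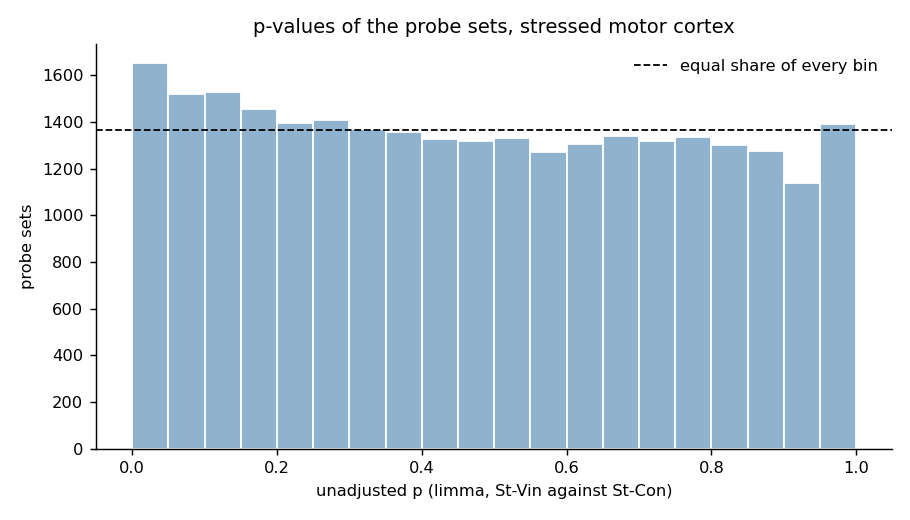
Number of probe sets in each of 20 bins of the unadjusted limma p for St-Vin against St-Con (bars), with the count that equal bins would hold (dashed line). The lowest bin holds 1652 probe sets, and no other bin exceeds 1527.

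All 3 St-Vin arrays lay above all 3 St-Con arrays in 1167 probe sets (4.27%) and below them in 1337 (4.89%), and such a gene has an exact two-sided permutation p of 0.1, the smallest that 3 arrays against 3 can give. St-Vin was higher in all 3 dyad groups in 11.7% of probe sets and lower in all 3 in 11.6%. Group means were higher in St-Vin for 49.4% of probe sets and lower for 48.8%. Brighter probe sets leaned slightly upward: of 13673 with at least median signal, 7690 had a higher mean in St-Vin and 5753 a lower one (median 0.013). Each list below is read against these shares, and a small upward lean of bright genes against the latter. No list member passed the adjusted threshold, so differences are given as values.

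Immediate early genes are transcribed within minutes of neuronal firing, and many encode transcription factors that then act on later genes. Of the 44 listed, 39 were measured, and 25 had a higher mean in St-Vin and 12 a lower one, with a median difference of 0.040 against 0 over all probe sets. The St-Vin arrays lay above the St-Con arrays in 4 members (Npas4, Ccn2, Ccn1 and Egr3) and below them in 1 (Klf2). 6 members had an unadjusted limma p below 0.05 with a higher signal and 0 with a lower one. In all 3 dyad groups 12 of 39 were higher and 2 lower. The list's median difference was 0.05, 0.07 and 0.02 in dyad groups 4, 5 and 6. Without St-Vin 2, the array with the highest list median (a deviation of 0.083), the list median was 0.0067 with 20 of 39 members higher.

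Npas4 (probe set 10727717), a transcription factor that firing neurons induce through calcium entry and that acts on inhibitory synapses, had the highest difference of the list. It read 8.40, 8.83 and 8.26 in St-Con 1 to 3 and 8.86, 9.36 and 9.13 in St-Vin 1 to 3. Every St-Vin array was above every St-Con array, narrowly so for St-Vin 1 against St-Con 2. The difference was 0.62 ± 0.16 (SE; limma adjusted p = 0.826). It was 0.46, 0.53 and 0.87 in dyad groups 4, 5 and 6, and with the replicate block the SE was 0.085 and the adjusted p 0.181.

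Ccn1 (probe set 10827231), a secreted matrix protein, was dim: it read 5.74, 5.73 and 5.64 in St-Con and 5.90, 6.03 and 6.00 in St-Vin, a difference of 0.27 ± 0.064 (limma adjusted p = 0.826). Ccn2, listed as Ctgf in older annotation, is its relative, and marks the deepest cortical layer as well, so it stands in the deep-layer list too. Its signal was 7.16, 7.35 and 7.12 in St-Con and 7.86, 7.47 and 7.49 in St-Vin. The groups did not overlap, and the array with the most deep-layer RNA, St-Vin 1, was the highest. The difference was 0.40 ± 0.098 and the dyad groups gave 0.70, 0.12 and 0.37. The part of layer content in it was not tested.

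The orphan nuclear receptors Nr4a2 and Nr4a1 differed by 0.31 ± 0.094 and 0.28 ± 0.15, and their groups overlapped. Nr4a1 read 8.88, 9.09 and 8.67 in St-Con and 9.19, 9.43 and 8.87 in St-Vin, so each St-Vin pool was above the St-Con pool of its own dyad group. The AP-1 subunits Junb (0.22 ± 0.12) and Jun (0.19 ± 0.083), the phosphatase Dusp1 (0.18 ± 0.14), the kinase Plk2 (0.15 ± 0.062) and the synaptic regulator Arc (0.13 ± 0.13) were also higher in every dyad group. Without St-Vin 2 the differences were 0.085 for Junb, 0.023 for Dusp1 and -0.0067 for Arc. Fos, the best known AP-1 subunit, read 6.79, 7.35 and 7.33 in St-Con and 7.24, 7.50 and 7.22 in St-Vin, and its difference of 0.16 ± 0.17 was as large as its error. At the other end stood Klf4 (-0.15 ± 0.089), a zinc finger factor, and Ptgs2 (-0.14 ± 0.10), which makes prostaglandins. Klf4 has 2 probe sets that disagreed, the dimmer one at 0.027. Egr3 differed by 0.047 and Klf2 by -0.10, each with arrays so close that the groups separated. Npas4, Ccn1 and Fos are named because earlier results of these data name them, and Ccn2, Klf4 and Ptgs2 because the naming rule ranks genes by p or difference. The other members here were picked after their values had been seen.

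To show what lies upstream of the 3 immediate early genes with non-overlapping groups and a difference of at least 0.2, the 250 bases before their RefSeq start sites are printed 5′ to 3′ from RefSeq's GRCr8 assembly: Npas4 at chr1:211716103-211716352, Ccn1 at chr2:237225690-237225939 and Ccn2 at chr1:22624615-22624864, all on the minus strand. Capitals mark TGACG, the short form of the cAMP response element, on either strand, and the core promoter letters TATAAA.
Npas4: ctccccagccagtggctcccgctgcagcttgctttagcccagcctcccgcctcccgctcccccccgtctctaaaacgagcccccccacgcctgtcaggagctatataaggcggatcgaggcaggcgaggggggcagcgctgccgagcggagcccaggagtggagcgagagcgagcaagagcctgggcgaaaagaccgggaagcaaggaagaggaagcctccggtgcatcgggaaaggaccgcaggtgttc
Ccn1: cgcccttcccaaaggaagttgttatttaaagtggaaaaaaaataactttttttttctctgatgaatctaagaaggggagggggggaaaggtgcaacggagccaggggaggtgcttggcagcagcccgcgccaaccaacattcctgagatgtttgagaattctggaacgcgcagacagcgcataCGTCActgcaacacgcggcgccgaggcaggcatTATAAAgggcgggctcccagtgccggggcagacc
Ccn2: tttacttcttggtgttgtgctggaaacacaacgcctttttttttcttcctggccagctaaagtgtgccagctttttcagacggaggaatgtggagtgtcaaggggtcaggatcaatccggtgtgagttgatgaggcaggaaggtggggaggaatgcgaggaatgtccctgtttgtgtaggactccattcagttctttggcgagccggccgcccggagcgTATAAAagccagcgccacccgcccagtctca
The Ccn1 window held 1 short element on the opposite strand, seen as CGTCA, and 1 TATAAA, Ccn2 held 1 TATAAA, and Npas4 held neither. Variants of TATAAA, such as the letters tatataag in the Npas4 window, were not searched. A search of both strands covered these 2 motifs, the full element TGACGTCA, which contains the short one, the AP-1 site TGANTCA, the E-box CACGTG and the CArG box. Of the 39 immediate early genes 28 had a promoter in the RefSeq table. The short element occurred in 16 of them (57.1%) against 18.2% of all 33469 promoters, the full element in 5 (17.9% against 1.59%) and the CArG box in 5 (17.9% against 1.5%). The exact letters TATAAA were found in 6 (21.4% against 12.9%), E-boxes in 6 (21.4% against 5.59%) and AP-1 sites in 0 (6.34% of all). These shares describe the letters of the listed genes and carry no value of the arrays.

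**Figure D3:**
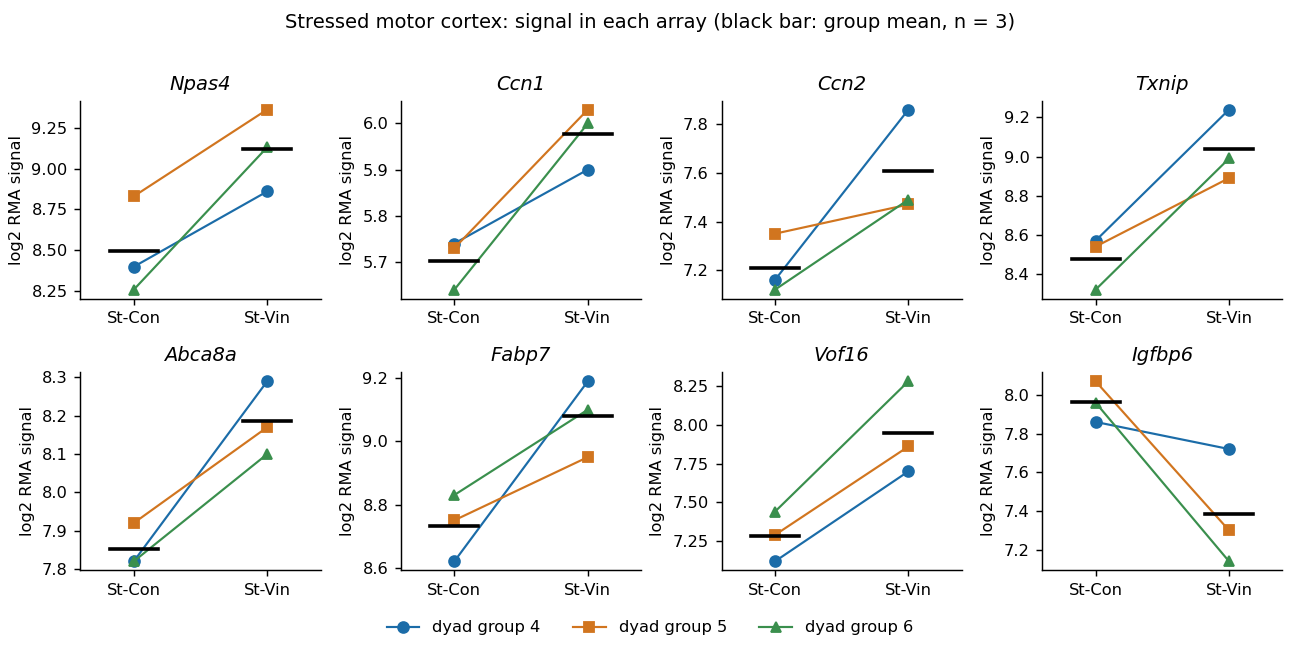
Log2 RMA signal of 8 named genes in each of the 6 arrays, with St-Con left and St-Vin right, a line joining the pools of a dyad group, and a black bar at each group mean (n = 3). In all 8 panels the 3 lines run the same way, up for Npas4, Ccn1, Ccn2, Txnip, Abca8a, Fabp7 and Vof16 and down for Igfbp6.

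Of genes with 1 symbol, at least median signal and the same sign in 3 dyad groups, the 12 with the lowest p in each direction are named. Being chosen by p, they are described with no further support. Their limma adjusted p-values lay between 0.731 and 0.826, and the groups did not overlap in any of the 24. Among probe sets of at least median signal, 4.81% of probe sets separated upward and 3.52% downward, and 5.54% had an unadjusted limma p below 0.05.

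Txnip (probe set 10817552), which encodes the thioredoxin-interacting protein that curbs thioredoxin and glucose uptake, read 8.57, 8.54 and 8.32 in St-Con and 9.24, 8.89 and 8.99 in St-Vin. The lowest St-Vin array was 0.32 above the highest St-Con array, and the difference was 0.56 ± 0.10. Abca8a, a lipid transporter of the ABC family, read 7.82, 7.92 and 7.82 in St-Con and 8.29, 8.17 and 8.10 in St-Vin, a difference of 0.33 ± 0.060. Fabp7, the brain fatty acid binding protein of radial glia and astrocytes, read 8.62, 8.75 and 8.83 in St-Con and 9.19, 8.95 and 9.10 in St-Vin (0.35 ± 0.073). Vof16, a transcript named from ischaemic rat brain, had the highest difference of the 24, at 0.66 ± 0.17. It read 7.12, 7.29 and 7.44 in St-Con and 7.70, 7.86 and 8.28 in St-Vin, with like steps within the dyad groups of 0.58, 0.57 and 0.84. Its adjusted p was 0.826 in limma and 0.181 with the replicate block.

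The other higher genes were Piga, the first enzyme of GPI anchor synthesis (0.32 ± 0.080), Lrp1b, a lipoprotein receptor relative (0.30 ± 0.068 in probe set 10844966), Gpx8, a glutathione peroxidase of the endoplasmic reticulum (0.30 ± 0.064), and Ccdc112 (0.30 ± 0.060). Gnpnat1, an enzyme on the way to UDP-N-acetylglucosamine, differed by 0.28 ± 0.071 and Otud7b, a deubiquitinase, by 0.22 ± 0.055. Lrp1b has 16 probe sets, all higher in St-Vin by 0.093 to 0.313, with 7 separated and the brightest at 0.23 ± 0.11. Nrxn3, a presynaptic adhesion protein, read 9.09, 9.18 and 9.15 in St-Con and 9.33, 9.36 and 9.32 in St-Vin, a small difference (0.20 ± 0.049) with tight arrays. Ccn2 completes the 12.

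Igfbp6 (probe set 10899465), a secreted protein that binds insulin-like growth factor 2 and is made by leptomeningeal cells, led the lower genes. It read 7.86, 8.07 and 7.96 in St-Con 1 to 3 and 7.72, 7.30 and 7.14 in St-Vin 1 to 3. The groups were separated by 0.14 at their nearest, and the difference was -0.58 ± 0.13, with -0.14, -0.77 and -0.82 in dyad groups 4 to 6. It is the 1 lower member of the leptomeningeal list, in which 16 of 17 genes had a higher mean in St-Vin (median 0.13; -0.11 with 4 of 17 higher without St-Vin 3). St-Vin 3, the array with the highest leptomeningeal level, had the lowest Igfbp6 signal. Igf2 itself read 6.20, 6.26 and 6.14 in St-Con and 6.44, 6.08 and 6.69 in St-Vin, a difference of 0.20 ± 0.26.

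The remaining 11 lower genes differed by -0.38 to -0.19. They were LOC366310 (-0.38 ± 0.095, the lowest p of its 4 probe sets, and -0.25 ± 0.11 in the brightest), the olfactory receptors Or5aq1b (-0.28 ± 0.076) and Or5al1 (-0.24 ± 0.063), Tmem179b (-0.26 ± 0.073), Prr3 (-0.23 ± 0.063) and Fbxo16 (-0.22 ± 0.068). Nos2, the inducible nitric oxide synthase, read 7.01, 6.78 and 6.95 in St-Con and 6.66, 6.71 and 6.72 in St-Vin (-0.22 ± 0.065). Pom121, a nuclear pore protein, differed by -0.22 ± 0.065, and the tetraspanin Tspan9 and the ubiquitin ligase Dtx2 by -0.20 ± 0.060 and -0.20 ± 0.054. Bbln, a small coiled-coil protein, read 8.97, 9.07 and 8.99 in St-Con and 8.78, 8.86 and 8.81 in St-Vin, a difference of -0.19 ± 0.056.

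Glucocorticoid receptors and response genes showed no common direction, with 11 of 22 higher and 10 lower, a median of 0.0050 (-0.0075 to 0.028 when each array was left out, with -0.0025 without St-Vin 1), 2 members separated upward and 1 downward. The glucocorticoid receptor Nr3c1 read 9.31, 9.48 and 9.53 in St-Con and 9.64, 9.52 and 9.53 in St-Vin, so the groups overlapped (0.12 ± 0.064). The mineralocorticoid receptor Nr3c2 (-0.10 ± 0.062) and the receptor's co-chaperone Fkbp5 (-0.15 ± 0.091) were lower, with overlapping groups. Sgk1, a kinase that glucocorticoids induce, had the second highest difference at 0.23 ± 0.099, and its St-Vin pools were above the St-Con pool of their own dyad group, with 9.22, 9.20 and 9.01 against 9.54, 9.38 and 9.19. The highest was Sult1a1, a sulphotransferase, at 0.25 ± 0.13, which read 7.01, 7.02 and 7.01 in St-Con and 7.06, 7.06 and 7.68 in St-Vin. St-Vin 3 alone was high, the array rich in vascular and leptomeningeal RNA, and the part of that RNA in it was not tested. Tsc22d3, the leucine zipper protein that glucocorticoids induce, separated downward by 0.087 on the log2 scale, at 8.36, 8.37 and 8.42 against 8.31, 8.27 and 8.31. Among the 11 measured control genes differences ran from -0.15 to 0.15, with the oestrogen receptors Esr1 at -0.060 ± 0.054 and Esr2 at 0.15 ± 0.076. The androgen receptor was not analysed here. In the list of androgen, oestrogen and steroid metabolism 12 of 19 were higher and 7 lower (median 0.020; 0.0033 without St-Con 1 and 0.0074 after quantile normalization), and 0 separated in either direction.

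Glutamate receptor genes were mostly a little higher in St-Vin, with 15 of 22 higher, 7 lower and a median of 0.028 (0.0083 to 0.072 when each array was left out), though 1 separated upward and 0 downward. That one was Gria3, an AMPA receptor subunit, at 10.71, 10.74 and 10.73 in St-Con and 10.88, 10.88 and 10.86 in St-Vin, with a difference of 0.15 ± 0.048 and a spread within groups far below it. Gria1, another AMPA subunit, differed by 0.18 ± 0.081, and the kainate subunit Grik3 by 0.20 ± 0.17, with St-Vin 3 (7.71) below every St-Con array. Grin3a, an NMDA subunit that limits calcium flow, was lowest at -0.18 ± 0.066. GABA receptor and transport genes were split, with 9 of 21 higher and 11 lower (median -0.010, and -0.042 to 0.0067 when each array was left out; 0.0050 without St-Vin 3), and Slc12a5, the chloride exporter of mature neurons, and Abat, which breaks down GABA, lay below in all St-Vin arrays (-0.11 and -0.13).

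Potassium channel genes leaned the other way. Of 43 measured, 15 were higher and 27 lower, with a median of -0.033, 1 separated upward and 4 downward, and 12 were lower in all 3 dyad groups against 4 higher. Kcnip2, a subunit that sets A-type currents, read 7.98, 7.94 and 8.00 in St-Con and 7.70, 7.76 and 7.88 in St-Vin (-0.19 ± 0.079). Kcnj10, the inward rectifier of astrocytes, and Kcnj11, the pore of ATP-sensitive channels, both separated downward as well, by 0.14 on the log2 scale each. Kcnh5 had the lowest difference, -0.29 ± 0.26, with 9.49, 9.32 and 9.68 in St-Con and 8.76, 9.13 and 9.72 in St-Vin, so it rested on St-Vin 1 and St-Vin 2. The list's median was between -0.045 and -0.018 when each array was left out in turn.

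The myelin and upper-layer lists followed a single array, and the deep-layer list did so only in part. All 25 measured myelin genes had a higher mean in St-Vin (median 0.15), but the median was 0.40, 0.12 and -0.08 in dyad groups 4 to 6, and without St-Vin 1 it was 0.0033 with 13 of 25 higher. Mbp, a main myelin protein, read 10.75, 10.73 and 10.43 in St-Con and 11.15, 10.71 and 10.38 in St-Vin, and 2 members, Ermn (0.25 ± 0.10) and Aspa (0.20 ± 0.071), separated upward. Deep-layer genes had 8 of 11 higher (median 0.13; 0.035 with 7 of 11 higher without St-Vin 1). Their median was 0.31, 0.10 and 0.03 in dyad groups 4 to 6. Rprm led the list (0.60 ± 0.19), with 7.11, 7.63 and 6.99 in St-Con and 8.21, 7.90 and 7.42 in St-Vin. Rprm, a cell cycle inhibitor used as a marker of layer 6, was higher in every dyad group while the groups overlapped. Upper-layer genes had 0 of 7 higher (median -0.097; 0.0033 with 5 of 7 higher without St-Vin 1).

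Oligodendrocyte precursors, the dividing cells that give rise to myelinating ones, did not follow 1 array. Of 11 measured genes 7 were higher and 4 lower (median 0.083, and 0.055 to 0.075 when each array was left out), and the median was 0.09, 0.08 and 0.01 in dyad groups 4 to 6. The list's median deviation was -0.028, -0.042 and -0.027 in St-Con and 0.042, 0.032 and 0.0050 in St-Vin, so the arrays of the lineages did not overlap. Chance gives such a separation in 5% of cases in each direction, and this list is 1 of many described. Pdgfra, the growth factor receptor that defines these cells, read 8.05, 7.95 and 7.90 in St-Con and 8.14, 8.13 and 8.09 in St-Vin, a difference of 0.15 ± 0.065 (limma adjusted p = 0.826) and the 1 separated member. Tnr, a matrix glycoprotein, differed by 0.14 ± 0.076 with overlapping groups. Without stress 5 of 11 were higher (median -0.030). In stressed amygdala 9 of 11 were higher (median 0.053) and in stressed CA3 5 of 11 (median -0.020).

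Astrocyte genes did not move as a block. Of 17 measured, 6 were higher and 10 lower (median -0.0067, and -0.048 to 0.023 when each array was left out; 0.018 without St-Vin 3), with 1 separated upward and 4 downward. Gjb6, a gap junction protein of astrocytes, read 9.27, 9.11 and 9.20 in St-Con and 8.91, 8.90 and 9.06 in St-Vin (-0.24 ± 0.091), and Agt, which encodes angiotensinogen, differed by -0.19 ± 0.072. Gfap, the filament protein of fibrous and reactive astrocytes, went the other way, at 8.13, 7.98 and 7.97 in St-Con and 9.0, 8.09 and 8.29 in St-Vin (0.43 ± 0.21), with the myelin-rich array highest. Aqp4, the water channel of astrocyte endfeet, separated upward (0.20 ± 0.095). Microglial genes had 6 of 15 higher and 9 lower (median -0.047; 0.020 with 9 of 15 higher without St-Vin 3, and 0.0033 with 8 of 15 higher without St-Con 1). Interneuron genes had 6 of 18 higher and 11 lower (median -0.025; 0.031 with 11 of 18 higher without St-Vin 3), with Pvalb at -0.17 ± 0.067.

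Genes of DNA methylation and histone deacetylation had 19 of 26 higher and 6 lower, with a median of 0.025 (0.0092 to 0.050 when each array was left out, and 0.0049 after quantile normalization), and 1 separated in each direction. Hdac8, a class I deacetylase, read 7.40, 7.24 and 7.46 in St-Con and 7.50, 7.56 and 7.55 in St-Vin (0.17 ± 0.062). Dnmt3b, a de novo methyltransferase, was dim and read 5.14, 5.07 and 5.31 in St-Con and 5.04, 5.06 and 4.99 in St-Vin (-0.14 ± 0.064). The maintenance enzyme Dnmt1 differed by 0.037 ± 0.059. Cholesterol synthesis genes had 13 of 16 higher (median 0.052; -0.014 without St-Vin 1), led by Tm7sf2 (0.15 ± 0.068) and Sqle (0.11 ± 0.12).

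Subunits of the mitochondrial respiratory chain were mostly lower in St-Vin: 25 of 33 of complex I (median -0.047), 15 of 20 of complexes II to IV (median -0.038) and 11 of 15 of ATP synthase (median -0.017). In dyad group 6, 0 of these 33, 20 and 15 genes were higher in St-Vin. Without St-Vin 3 the medians were 0, 0.019 and 0.040. Ndufa2, a complex I subunit, separated downward in spite of this, at 6.84, 6.68 and 6.80 against 6.57, 6.50 and 6.64 (-0.20 ± 0.063). Ribosomal protein genes had 39 of 67 higher and 26 lower (median 0.0067, but -0.010 after quantile normalization), and circadian clock genes 7 of 16 higher and 9 lower (median -0.018, but 0.019 without St-Vin 3 and 0.0050 without St-Con 2).

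**Figure D4:**
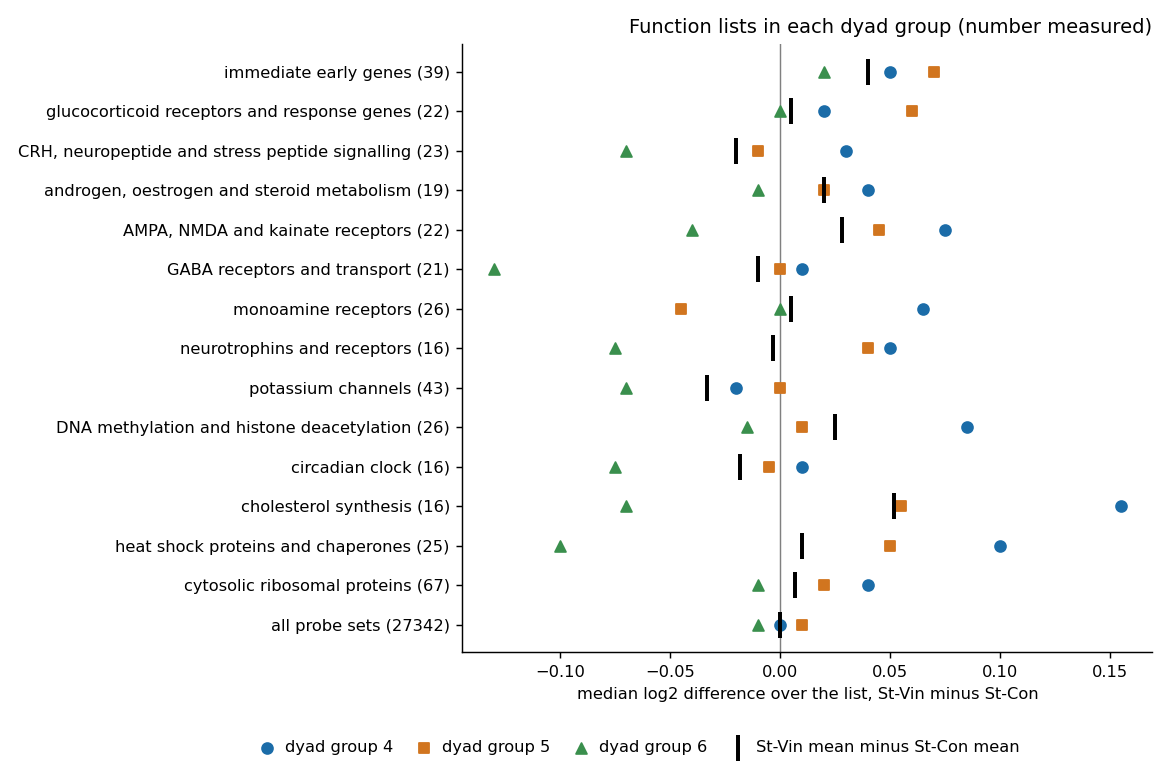
Median log2 difference, St-Vin minus St-Con, of 14 function lists and of all probe sets, within each dyad group (markers) and between group means (black bar), with the number measured beside each name. Dyad groups 4 and 5 mostly lie right of dyad group 6; immediate early genes are above 0 in all 3 (0.05, 0.07 and 0.02).

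The lineage difference in unstressed rats was measured on 5 arrays used, 3 of NSt-Con and 2 of NSt-Vin, since the other NSt-Vin array equals the mean of these 2. limma called 0 of 27342 probe sets for the difference between the lineage effects with and without stress (0.0%; lowest adjusted p 0.490), with 1534 at an unadjusted p below 0.05 (5.61%). Without stress it called 0 (0.0%), with 1554 below 0.05 (5.68%). All NSt-Con arrays and 1 of the 2 NSt-Vin arrays were scanned on another day than the stressed arrays. With scan day as a block the interaction count was 0 as well.

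Igfbp6 and Npas4 had lineage differences of like size in both conditions. Igfbp6 read 8.81, 8.50 and 8.56 in NSt-Con and 7.98 and 7.90 in NSt-Vin, a difference of -0.68 ± 0.14, and the lineage effects differed by 0.11 ± 0.19. Npas4 read 8.35, 8.56 and 8.79 in NSt-Con and 8.94 and 9.19 in NSt-Vin, a difference of 0.50 ± 0.18, with 0.12 ± 0.24 between the effects. In neither condition did the lineages overlap for these genes, nor for Otud7b, Fbxo16 and Ccn1. Without stress Otud7b was at 0.147 ± 0.0615, Fbxo16 at -0.148 ± 0.0762 and Ccn1 at 0.115 ± 0.0717. In unstressed rats 3 arrays stand against 2, which chance separates more often than 3 against 3, and the share over all probe sets is not given here. Abca8a, Fabp7, Gpx8 and Bbln also separated without stress, but on the side opposite to that with stress. Several of the other named genes had small differences without stress: Txnip was at 0.072 ± 0.12 without stress, Ccn2 at 0.040 ± 0.11, Abca8a at -0.092 ± 0.067 and Vof16 at -0.16 ± 0.19. Opposite signs without stress were common among the 24. Fabp7 was at -0.18 ± 0.081, with 9.03, 8.96 and 9.08 in NSt-Con and 8.82 and 8.87 in NSt-Vin. Gpx8, Lrp1b, Gnpnat1, Nrxn3, Abca8a, Vof16, Bbln, LOC366310, Prr3, Tmem179b, Nos2 and Tspan9 had the opposite sign as well. Txnip, Ccdc112, Ccn2, Piga, Otud7b, Igfbp6, Or5al1, Dtx2, Pom121 and Fbxo16 kept their sign, and Or5aq1b was at 0.0. The interaction had an unadjusted p below 0.05 in 17 of the 24 genes and an adjusted p of 0.756 or more, and it shares the stressed arrays by which they were chosen.

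Immediate early genes had 28 of 39 members higher in NSt-Vin (median 0.055), beside 25 with stress. Potassium channel genes had 37 of 43 higher without stress (median 0.060), where 27 were lower with stress, and the median of the 43 interactions was -0.087. Complex I had 22 of 33 higher without stress (median 0.018). Other lists were higher without stress as well: 56 of 67 ribosomal protein genes (median 0.070) and 18 of 21 GABA genes (median 0.080). Heat shock and chaperone genes went the other way, with 18 of 25 lower (median -0.028). So did choroid plexus genes, with 18 of 18 lower without stress (median -0.47) where 15 were higher with stress (median 0.105). Ttr read 15.02, 8.68 and 11.12 in NSt-Con and 10.59 and 8.39 in NSt-Vin. The part of such tissue content in the unstressed differences and the interactions was not tested. The median interaction was -0.10 for GABA genes, -0.090 for complex I and -0.083 for clock genes. Over all probe sets the median lineage difference was -0.0017 without stress, and 0.012 over those of at least median signal.

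**Figure D5:**
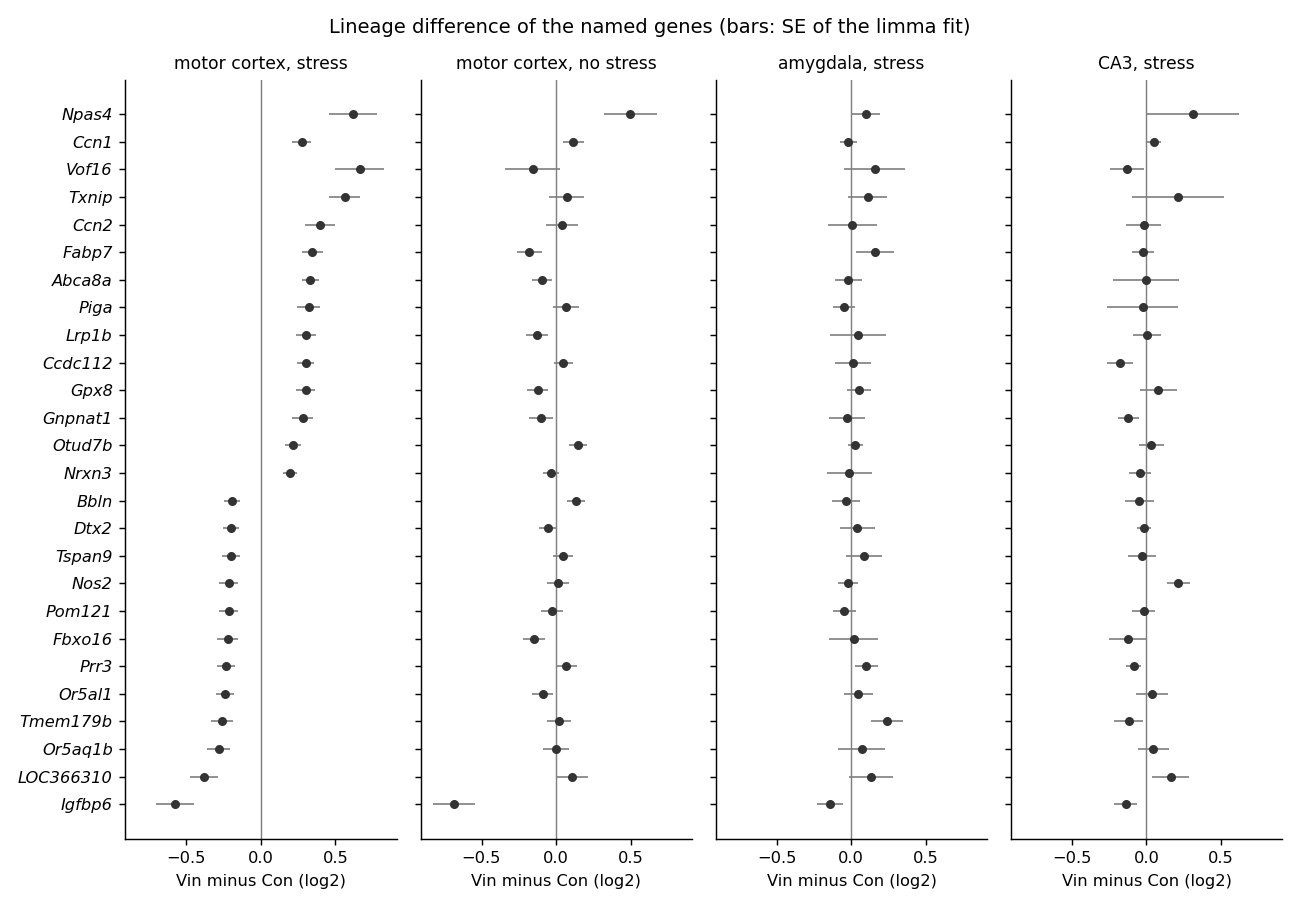
Log2 lineage difference (vinclozolin minus control) of Npas4, Ccn1 and the 24 named genes, 1 row per gene, in stressed and unstressed motor cortex and in stressed basolateral amygdala and CA3, with bars for the SE of the fit. The 24 genes were chosen by the first panel. Igfbp6, Npas4, Ccn1, Otud7b and Fbxo16 are among those that keep their side in the second, and Abca8a, Fabp7, Gpx8 and Bbln among those that change it.

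The same stressed pools also supplied basolateral amygdala and CA3, so the lineage differences of 2 areas were compared within pools. limma called 0 of 27342 probe sets for motor cortex minus amygdala (0.0%; lowest adjusted p 0.855; 1121 or 4.10% below an unadjusted p of 0.05) and 0 for motor cortex minus CA3 (0.0%; lowest adjusted p 0.805; 1627 or 5.95%). Igfbp6 differed by -0.14 ± 0.087 in amygdala and -0.14 ± 0.075 in CA3, and Npas4 by 0.097 ± 0.098 and 0.31 ± 0.31. Vof16 was at 0.16 ± 0.20 in amygdala and -0.13 ± 0.12 in CA3, and Txnip at 0.11 ± 0.13 and 0.21 ± 0.31. For Npas4 the motor cortex difference exceeded that of amygdala by 0.52 ± 0.15 (limma adjusted p = 0.998) and that of CA3 by 0.31 ± 0.31 (adjusted p = 0.879). Myelin genes, higher in 25 of 25 in motor cortex, had a median of -0.12 in amygdala and 0.020 in CA3, and immediate early genes 0.0067 and 0.023.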

How the data were processed

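The authors deposited log2 signals of 1-colour Affymetrix arrays, per the labels, in a table of 27342 probe sets, and made with Partek and RMA per the submitters' processing notes, with versions and genome build not given in the sources used here. Platform annotation gives 15097 probe sets 1 gene symbol, 323 several and 11922 none; 15067 were matched to RefSeq. Values were used as deposited. Differences and SE come from limma 3.58.1 (lmFit, eBayes, R 4.3.3), two-sided, fitted over 11 of 12 motor cortex arrays sharing 1 spread (1 unstressed array equal to its group-mates' mean, tolerance 0.0051, was left out), with Benjamini-Hochberg adjustment over all probe sets and a threshold of 0.05. The fit was run on simulated arrays with independent noise, to check that it returned the differences put in. The smallest difference it could detect in these arrays is not given here. Areas were compared on differences within a pool. The members and lists were chosen with earlier results of these data known. Named genes are the 12 lowest p per direction described in the text, the 2 highest and 2 lowest of a list, control genes, and Ccn1, Fos, Npas4, Mbp, Igf2, Ttr and Igfbp6; members separated between groups and others were named after their values were seen. A gene with several probe sets is given by the brightest, except the 24 chosen by p, each given by its probe set of lowest p (not the brightest for Lrp1b and LOC366310). Alternatives were the 6 arrays alone, the replicate block, a filter below the 30th percentile, other eBayes settings, quantile normalization, median centring, all 12 arrays and leaving out each array. Labels pair cage mates; deviations of same-numbered pools correlated at -0.051, -0.065 and 0.22.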

Additional observations from a re-analysis of the deposited data

How the results depend on the processing

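The counts of probe sets past an adjusted limma p of 0.05 were 0 for the lineage difference under stress, its interaction with stress and its differences from amygdala and CA3 under every alternative run for each. With the dyad group as a replicate block the unadjusted count was 1721 against 1652. The unadjusted count moved to 1040 of 19141 probe sets with the filter on dim ones, which tests fewer, and ranged from 914 (without St-Con 1) to 2208 (without St-Vin 2) when 1 array was left out. Probe sets with separated groups numbered 2504, and 4062 to 6605 with 1 array fewer, since 2 arrays separate more easily from 3. No named gene passed under any setting run, with a lowest adjusted p of 0.179. Of 79 named genes 32 had a difference over 1.5 times smaller, or of the other sign, in at least 1 fit that left out an array, and 5 changed sign: Fos (-0.02 to 0.26 over the 6 fits), Arc (-0.0067 to 0.235), Mbp (-0.092 to 0.293), Ogn (-0.22 to 1.01) and Ttr (-0.30 to 2.84); 0 did so under the other settings. Their causes were not tested. Of the list medians, 12 of 192 moved by more than the spread between arrays when an array was left out, and 0 of 256 otherwise.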

Other observations

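The difference reached 0.5 log2 in 35 of 27342 probe sets, with more signal in St-Vin for 24 and less for 11, and the groups were separated in 14 of them. As 5 of the higher probe sets hold identical values, the 35 are 31 distinct measurements and the 24 are 20. Of the 35, 10 had 1 gene symbol. Besides genes named above they held Chrna5, a nicotinic receptor subunit, at 6.21, 6.93 and 5.81 in St-Con and 7.66, 6.87 and 6.04 in St-Vin, where only dyad groups 4 and 6 were higher. They also held Or8c16, an olfactory receptor, at 5.99, 6.36 and 5.97 in St-Con and 6.62, 6.58 and 6.79 in St-Vin, a separated difference of 0.56 ± 0.13, and Kcnj13, a channel of choroid plexus, at 7.16 in St-Vin 1 and 5.37 to 6.15 in the other 5 arrays. Another of them, 10937568, has no symbol here and read 6.97, 7.14 and 6.94 in St-Con and 7.56, 7.63 and 7.71 in St-Vin. All of these genes and probe sets were chosen after their values were seen, and limma gave each an adjusted p of 0.826 or more.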
